A study of Saccharomyces cerevisiae with 12 samples.

Results

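The 4 genes described here, GRE2, ARI1, YDR541C and YGL039W, encode the methylglyoxal and aldehyde reductases of the GRE2 family in Saccharomyces cerevisiae. They were chosen by gene name, through the platform's annotation, and each is measured by 1 probe set, so that 4 of 5489 named probe sets (5444 genes) belong to the family. The expression data come from a xylose-utilizing strain in anaerobic batch bioreactors, in which the sugars were consumed one after the other. A pulse of 3.9 g/L 5-hydroxymethylfurfural (HMF) and 1.2 g/L furfural, furan aldehydes that form when plant biomass is pretreated, was added in the xylose consumption phase or in the glucose consumption phase, and pulsed cultures were sampled 1 hour later. The 4 conditions are thus the xylose pulse, the xylose control, the glucose pulse and the glucose control, with 3 arrays each. All cultures were of the single strain VTT C-10883, which carries the xylose reductase and xylitol dehydrogenase genes of Scheffersomyces stipitis (XYL1 and XYL2) and overexpresses the xylulokinase gene XKS1, so no strain without this pathway serves as a comparison. The paper describes samples drawn just before the pulse and also an experiment without a pulse. The kind of the control arrays is not given by the labels, and if they hold the earlier samples, the pulse and 1 hour of cultivation cannot be told apart.

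Members of this family belong to the superfamily of short-chain dehydrogenases and reductases. As reductases, they take hydride from NADPH and pass it to a carbonyl group, which turns an aldehyde or ketone into an alcohol. In yeast they act on a wide range of substrates, among them methylglyoxal, a toxic by-product of glycolysis, branched-chain aldehydes and the furan aldehydes, which are reduced to less toxic alcohols at the cost of NADPH. Gre2 is known as a methylglyoxal and isovaleraldehyde reductase whose gene answers to osmotic and oxidative stress, Ari1 as an NADPH-dependent aldehyde reductase with activity on furfural and HMF, and YGL039W and YDR541C as related reductases that keep their systematic names.

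The values are deposited log2 expression values, so a difference of 1 is a 2-fold change. Each difference was tested with limma across all 5489 probe sets, and a gene was called higher or lower when its Benjamini-Hochberg adjusted p lay under 0.01 and its log2 fold change above 1 or below -1. Arrays of one condition correlated at 0.992 to 0.998 over all probe sets. As a check of the phase labels, 8 of 10 glucose-repressed genes were higher in the xylose control than in the glucose control, against 27.8% of all probe sets, with a median log2 difference of 3.29.

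After the furan aldehyde pulse, GRE2 and ARI1 rose in both consumption phases, whereas YDR541C and YGL039W passed the thresholds in neither. GRE2 was 4.5-fold higher after the pulse in the xylose phase and 6.78-fold higher in the glucose phase, and ARI1 was 5.34-fold and 3.7-fold higher in these phases. The members called higher were thus 2 of 4 in the xylose phase, against 11.8% of all probe sets, and 2 of 4 in the glucose phase, against 11.6%. Over all probe sets, 87 (1.58%) were called higher in both phases, GRE2 and ARI1 among them. The paper already names GRE2 and ARI1 among the genes raised in both phases on these arrays, so their rise is not an independent result. At the same thresholds the paper counts fewer such genes. The median log2 fold change over all probe sets was -0.08 in the xylose phase and 0.03 in the glucose phase.

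**Figure D1:**
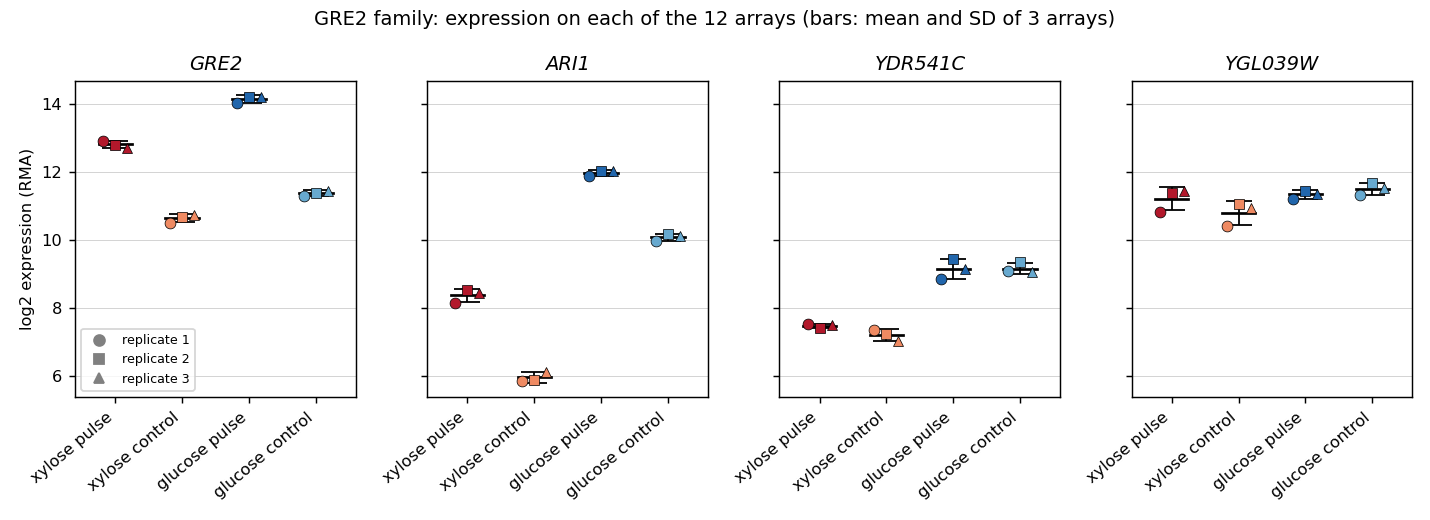
Log2 expression (vertical axis) of the 4 GRE2 family genes on each of the 12 arrays, by condition, with symbols by replicate number and bars for the mean and SD (n = 3). GRE2 and ARI1 are higher on every pulse array than on any control array of the same phase, and ARI1 in the xylose pulse (8.15 to 8.53) is below ARI1 in the glucose control (9.95 to 10.17).

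GRE2 (YOL151W, probe set 1772997_at) had log2 values of 12.91, 12.78 and 12.7 in the xylose pulse and 10.49, 10.68 and 10.72 in the xylose control. The arrays of the pulse were all above those of the control, and the gap was many times the spread within either condition. The log2 fold change was 2.17 (SE 0.09, limma adjusted p = 6.9e-10). In the glucose phase GRE2 reached 14.01, 14.18 and 14.2 with the pulse, against 11.28, 11.38 and 11.44 in the control. Again no array of one condition overlapped with the other. The log2 fold change in the glucose phase was 2.76 (SE 0.09, limma adjusted p = 6.6e-11), which placed GRE2 at position 74 of 5489 from the top there, and at 156 in the xylose phase. In the glucose pulse its signal was among the 12 brightest on each array, and saturation of the probes was not tested.

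ARI1 (YGL157W, probe set 1777697_at) had the widest range of the family across the conditions. Its log2 values were 8.15, 8.53 and 8.43 in the xylose pulse and 5.86, 5.88 and 6.12 in the xylose control, again without overlap. This was a log2 fold change of 2.42 (SE 0.11, limma adjusted p = 1.4e-09), at position 117 from the top. In the glucose phase ARI1 stood at 11.86, 12.01 and 12.01 in the pulse and at 9.95, 10.17 and 10.1 in the control. All glucose pulse arrays exceeded all glucose control arrays. The log2 fold change was 1.89 (SE 0.11, limma adjusted p = 1.0e-08), at position 191. In the xylose control the ARI1 signal lay between the percentiles 9.66 and 10.6 of all probe sets on its array. Whether this signal is above background was not tested, so the fold change against it is a less exact size.

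YDR541C (probe set 1771286_at) measured 7.51, 7.39 and 7.49 in the xylose pulse and 7.35, 7.24 and 7.01 in the xylose control. The arrays did not overlap, and the log2 difference was 0.26 (SE 0.14, 95% interval -0.04 to 0.56, limma adjusted p = 0.11). Between arrays of the same number it was 0.16, 0.15 and 0.47, and with the replicate number as a block it had an SE of 0.1 and an adjusted p of 0.0332, so it passed neither threshold. Its glucose phase values were 8.83, 9.42 and 9.15 with the pulse and 9.08, 9.33 and 9.04 without it. The 2 conditions overlapped, and the log2 difference was -0.02 (SE 0.14, 95% interval -0.32 to 0.28, limma adjusted p = 0.909). Both intervals lie inside the thresholds of 1 and -1.

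YGL039W (probe set 1777693_at) had log2 values of 10.82, 11.38 and 11.42 in the xylose pulse, against 10.39, 11.05 and 10.93 in the xylose control. The conditions overlapped because replicate 1 was low in both. The log2 difference was 0.41 (SE 0.18, 95% interval 0.01 to 0.81, limma adjusted p = 0.062). It was 0.21 without xylose control replicate 1 (adjusted p = 0.29) and 0.61 without xylose pulse replicate 1 (adjusted p = 0.00752), the lowest and highest values with 1 array left out. Its glucose phase values were 11.2, 11.44 and 11.35 with the pulse and 11.31, 11.67 and 11.51 in the control. These overlapped as well, and the log2 difference was -0.16 (SE 0.18, 95% interval -0.56 to 0.24, limma adjusted p = 0.45).

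The spread of YGL039W followed the replicate numbers. Replicate 1 was the lowest array of its condition in all 4 conditions for YGL039W and for ARI1, and in 3 of 4 for GRE2. Taken between arrays of the same number, the pulse minus control difference of YGL039W was 0.43, 0.33 and 0.48 in the xylose phase and -0.11, -0.23 and -0.16 in the glucose phase. All numbers thus gave a positive difference in the xylose phase and a negative one in the glucose phase. With the replicate number as a block in the model, the xylose phase difference of 0.41 had an SE of 0.06 and a limma adjusted p of 3.6e-04, still short of the fold threshold, and the glucose phase difference of -0.16 had an adjusted p of 0.0463. The block takes same-numbered arrays as pairs, which the labels do not state.

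**Figure D2:**
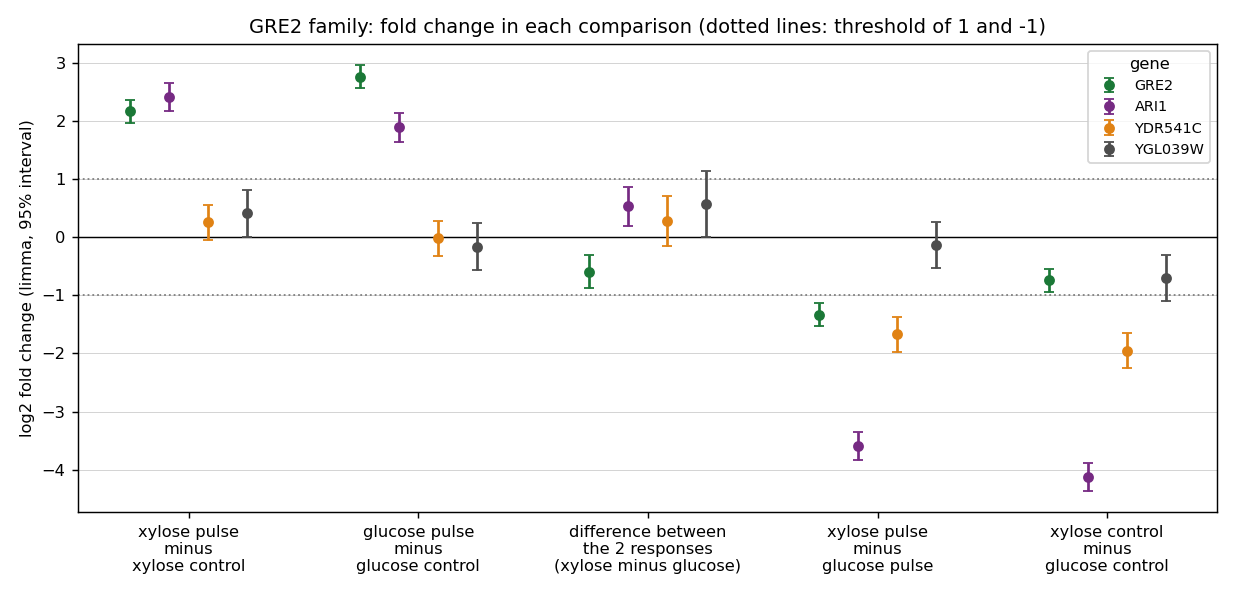
Log2 fold change (vertical axis, points) with 95% interval (bars) of each GRE2 family gene in the 5 comparisons, with dotted lines at 1 and -1. GRE2 and ARI1 lie above 1 in both pulse comparisons, and ARI1 lies lowest in both comparisons between the phases, at -3.59 with the pulse and -4.12 without it.

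The sizes of the responses in the 2 phases were then compared directly, as the pulse effect in the xylose phase minus that in the glucose phase. This difference was -0.59 on the log2 scale for GRE2 (SE 0.13, 95% interval -0.88 to -0.31, limma adjusted p = 0.00122) and 0.53 for ARI1 (SE 0.16, 95% interval 0.19 to 0.87, limma adjusted p = 0.00884). The pair thus differed in opposite directions, with the smaller GRE2 response and the larger ARI1 response in the xylose phase. Neither difference reached the fold threshold, so 0 of 4 members were called, against 38.9% of all probe sets in either direction. At the adjusted p alone 2 of 4 members passed, against 64.3% of all probe sets, a share near the background. For ARI1 the limma adjusted p was above 0.01 for most of the arrays when each was left out in turn (up to 0.0264, without xylose pulse replicate 2), after a second quantile normalization (0.0176) and with arrays centred on their medians (0.0102), while the difference stayed between 0.45 and 0.64 with single arrays left out. YDR541C had a difference of 0.28 (SE 0.2, limma adjusted p = 0.214) and YGL039W one of 0.58 (SE 0.26, 95% interval 0.01 to 1.14, limma adjusted p = 0.0628). With the replicate block the difference of YGL039W had an adjusted p of 3.6e-04.

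**Figure D3:**
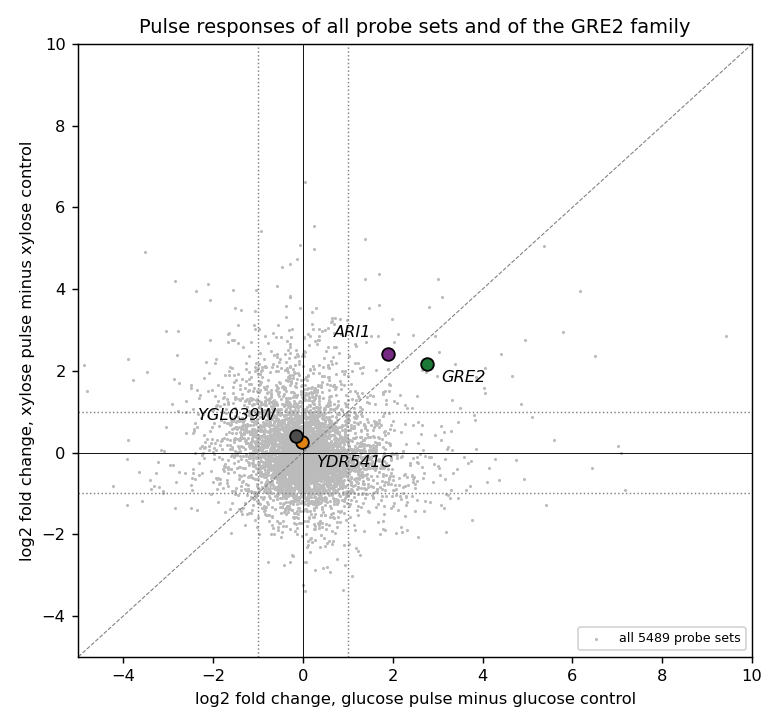
Log2 fold change after the pulse in the xylose phase (vertical axis) and in the glucose phase (horizontal axis) for all 5489 probe sets (grey) and the GRE2 family (coloured), with dotted lines at 1 and -1 and a dashed line of equal response. GRE2 (2.17 in the xylose phase, 2.76 in the glucose phase) and ARI1 (2.42 and 1.89) lie on either side of the dashed line, while YDR541C and YGL039W lie within the dotted lines.

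The controls of the 2 consumption phases were compared next, and ARI1 and YDR541C passed the thresholds there. By the paper, cells grew in the glucose phase but not in the xylose phase, which came later. Sugar, growth and culture age therefore cannot be told apart in comparisons between the phases. ARI1 fell 17.4-fold in the xylose control relative to the glucose control, a log2 difference of -4.12 (SE 0.11, limma adjusted p = 8.4e-13). YDR541C was 3.87-fold lower in the xylose control, at -1.95 (SE 0.14, limma adjusted p = 1.3e-08). The differences of GRE2, at -0.74 (SE 0.09, limma adjusted p = 5.2e-06), and YGL039W, at -0.7 (SE 0.18, limma adjusted p = 0.00298), had the same sign but were short of the fold threshold. The members called lower were thus 2 of 4, against 27.2% of all probe sets. The dimmest 25% of probe sets include YDR541C, which drops out of the test when they are left out.

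Between the pulsed cultures, ARI1 was 12.1-fold lower in the xylose pulse than in the glucose pulse (log2 difference -3.59, limma adjusted p = 7.5e-12), YDR541C 3.19-fold lower (-1.67, adjusted p = 9.7e-08) and GRE2 2.52-fold lower (-1.33, adjusted p = 1.7e-08). These were 3 of 4 members, against 22.9% of all probe sets. YGL039W differed by -0.13 (limma adjusted p = 0.533), with 11.2 ± 0.34 in the xylose pulse and 11.33 ± 0.12 in the glucose pulse (SD, n = 3). The comparisons between phases use the same arrays as the pulse comparisons and are not independent of them.

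The order of the conditions differed between the genes. From low to high, the order for GRE2 was xylose control (10.63 ± 0.12), glucose control (11.37 ± 0.08), xylose pulse (12.8 ± 0.11) and glucose pulse (14.13 ± 0.11; SD, n = 3 each), and no neighbours in this order had overlapping arrays. For ARI1 the order was xylose control (5.95 ± 0.15), xylose pulse (8.37 ± 0.19), glucose control (10.07 ± 0.11) and glucose pulse (11.96 ± 0.09), also without overlap. ARI1 in pulsed xylose cultures therefore remained below ARI1 in unpulsed glucose cultures, whereas GRE2 in pulsed xylose cultures was above GRE2 in unpulsed glucose cultures. YDR541C separated by phase, at 7.46 ± 0.06 and 7.2 ± 0.17 in the xylose pulse and control, and 9.13 ± 0.29 and 9.15 ± 0.16 in the glucose pulse and control, which overlapped. YGL039W was 11.2 ± 0.34 and 10.79 ± 0.35 in the xylose pulse and control, and 11.33 ± 0.12 and 11.5 ± 0.18 in the glucose pulse and control, and arrays of all neighbours in its order overlapped. From the highest to the lowest condition mean, ARI1 spanned 6.01 on the log2 scale (64.4-fold), GRE2 3.5 (11.3-fold), YDR541C 1.95 (3.87-fold) and YGL039W 0.7 (1.63-fold).

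Over the 12 arrays, Pearson's r between members was highest for ARI1 and YDR541C, at 0.89, followed by GRE2 and ARI1 at 0.773. The lowest values were those of GRE2 with YDR541C (0.43) and with YGL039W (0.367). These are descriptions over 12 arrays that fall into 4 conditions, so the arrays of a condition are not separate points of a relation.

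The genes most like each member over the 12 arrays were taken among 3761 probe sets whose condition means varied (SD of at least 0.5). For GRE2 they were SNQ2, which encodes a multidrug transporter (r = 0.992), GAS2 (0.988), ADY4 (0.985), ARO10, a phenylpyruvate decarboxylase gene (0.984), and DPL1 (0.982). SNQ2 had log2 fold changes of 1.41 in the xylose phase and 2.16 in the glucose phase, and ARO10 of 3.94 and 6.17. The closest to ARI1 were FSH1 (0.992) and GPN3, YPR1, MPD2 and CUE4 (0.99 each), of which YPR1 encodes another NADPH-dependent aldehyde reductase. The value of r does not reflect the size of a change. YPR1 had log2 fold changes of only 0.41 in the xylose phase and 0.52 in the glucose phase, called in neither. FSH1 had log2 fold changes of 1.4 in the xylose phase and 1.5 in the glucose phase, and its xylose control was lower than its glucose control by a log2 difference of -2.11. FUN26 (0.99), GUS1 and IFA38 (0.988 each), STE14 and CGI121 (0.986 each) were closest to YDR541C. For YGL039W, whose spread within conditions was large against its differences between them, the values were lower, from CAC2 (0.916), ECM33 (0.908), CMR1 (0.895) and MET1 (0.889) to HSL7 (0.875).

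The family was set beside 21 other genes of methylglyoxal and furan aldehyde conversion, among them glyoxalases, aldo-keto reductases, alcohol dehydrogenases and old yellow enzymes. In the xylose phase, 1 of 21 was called higher and 0 lower (11.8% and 8.38% of all probe sets), and 20 were not called, with a median log2 fold change of -0.01. The gene that rose was ALD6, which encodes the cytosolic NADP+-dependent acetaldehyde dehydrogenase, at 13.81 ± 0.13 in the xylose pulse and 11.37 ± 0.21 in the xylose control (SD, n = 3; log2 fold change 2.44, limma adjusted p = 9.3e-10). In the glucose phase 13 of 21 were called higher and 1 lower (11.6% and 9.55% of all probe sets), and 7 were not called, with a median of 1.16. The paper already reports AAD4, AAD6, AAD14, BDH2, OYE3, SFA1 and GRE3 of this list as raised in the glucose phase on these arrays. It likewise reports ALD6 as raised in the xylose phase. The counts of the list are therefore not independent of the paper's result. Of these 21, 0 were called higher in both phases, against 1.58% of all probe sets, a share at which a count of 0 says nothing particular about the list.

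OYE3, which encodes an old yellow enzyme (NADPH dehydrogenase), had 12.67 ± 0.06 in the glucose pulse and 6.23 ± 0.32 in the glucose control, a log2 fold change of 6.43 (limma adjusted p = 1.1e-12). AAD6, a putative aryl-alcohol dehydrogenase gene, rose by 5.6 and BDH2, a gene of the medium-chain alcohol dehydrogenases, by 5.11 in that phase. In the xylose phase their log2 differences were -0.37 for OYE3, 0.3 for AAD6 and 0.87 for BDH2, none of them called. OYE3 and BDH2 were already high in the xylose control (12.43 and 10.73), by 6.2 and 6.53 over the glucose control, whereas AAD6 was not (7.11, by 0.2). With the pulse, OYE3 was at 12.07 in the xylose phase, BDH2 at 11.6 (9.3 in the glucose phase) and AAD6 at 7.42. Between the controls, 12 of the 21 were called higher in the xylose control and 3 lower (27.8% and 27.2% of all probe sets). ADH4, named after its values were seen, was the gene that fell in the glucose phase, by 1.44 on the log2 scale. The differences of the responses (xylose minus glucose) were -6.8 for OYE3, -5.29 for AAD6, -4.24 for BDH2 and 1.64 for ALD6, all called. In the list, 2 genes were called higher and 13 lower in this difference, with a median of -1.29 against -0.13 over all probe sets. The background was high, since 38.9% of the 5489 probe sets passed in either direction (1043 with a positive and 1091 with a negative difference).

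**Figure D4:**
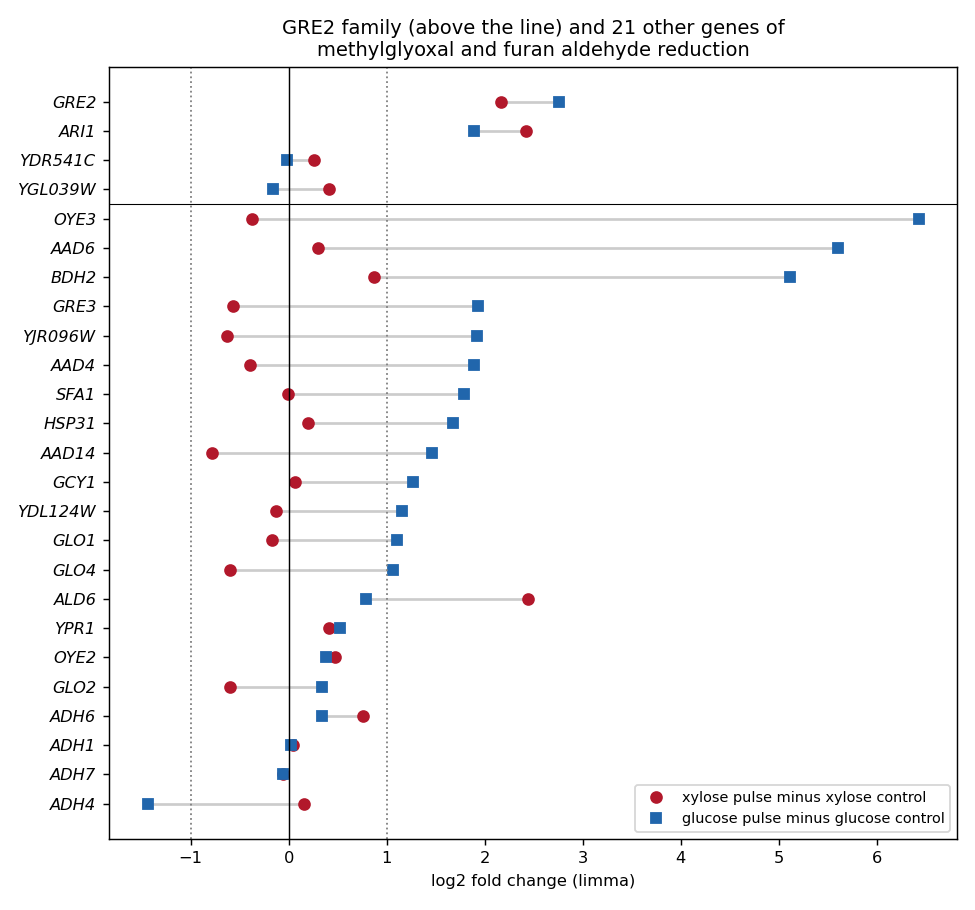
Log2 fold change after the pulse (horizontal axis) in the xylose phase (red circles) and in the glucose phase (blue squares) for the GRE2 family, above the line, and 21 other genes of methylglyoxal and furan aldehyde conversion, not all of them reductases. In the glucose phase 13 of the 21 are called higher (11.6% of all probe sets). In the xylose phase 1 is (11.8%), the acetaldehyde dehydrogenase gene ALD6 at 2.44.

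Of 19 other short-chain dehydrogenases and reductases, the wider superfamily, 15 were analysed. The other 4 (PBR1, YIR035C, YKL071W and YMR226C) were not found by symbol among the named probe sets. The paper reports YKL071W and PBR1 (under its systematic name YNL181W) as raised in the glucose phase, so the counts below leave out genes that responded. In the xylose phase 3 of 15 were called higher and 2 lower (11.8% and 8.38% of all probe sets), with a median of -0.52. In the glucose phase 6 were called higher and 0 lower (11.6% and 9.55% of all probe sets), with a median of 0.68. ERG27, which encodes the 3-keto sterol reductase of ergosterol synthesis, and YLL056C were the 2 called higher in both phases. The paper already names ERG27 as raised in both. ERG27 rose by 2.0 in the xylose phase and 1.09 in the glucose phase, and YLL056C by 2.94 and 5.79 (log2 scale). ERG26, the sterol dehydrogenase gene of the same pathway, rose by 1.21 in the xylose phase and is named after its values were seen. AYR1, which encodes a reductase of lipid synthesis, fell by 2.03 in the xylose phase and had a log2 difference of 0.4 in the glucose phase. YKL107W fell by 2.06 in the xylose phase and rose by 2.57 in the glucose phase, where both conditions were dim (5.46 ± 0.18 in the pulse and 2.89 ± 0.33 in the control).

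Regulators known for the stress response of GRE2 or for multidrug and furan aldehyde tolerance were measured as transcripts only, which says nothing of their activity. Of 11 regulators, 1 was called higher and 2 lower in the xylose phase (11.8% and 8.38% of all probe sets), and 4 higher and 0 lower in the glucose phase (11.6% and 9.55%). In the xylose phase STB5, an activator of NADPH-producing pathways, rose by 2.11 (limma adjusted p = 2.1e-08), while SKO1, a repressor under control of the Hog1 kinase, fell by 1.47 and the stress factor gene MSN4 fell by 1.1. STB5 had a log2 difference of 0.01, SKO1 of -0.33 and MSN4 of -0.12 in the glucose phase. The multidrug resistance factor genes PDR3 and YRR1 rose by 2.27 and 2.48 in the glucose phase, with differences of 0.69 and -0.6 in the xylose phase. HSF1, the heat shock factor gene, rose by 1.29 in the glucose phase, against -0.02 in the xylose phase. PDR1, at 1.01 in the glucose phase and 0.85 in the xylose phase, lay at the fold threshold. YAP1, the oxidative stress factor gene, differed by 0.2 in the xylose phase and 0.92 in the glucose phase. MSN2 differed by 0.34 and 0.1, HOG1 by 0.22 and 0.11, and HAA1 by 0.1 in the xylose phase with an adjusted p of 0.971 in the glucose phase, none of them called.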

How the data were processed

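RNA of 12 samples, 3 for each of 4 conditions, was hybridized to Affymetrix yeast arrays. The paper names 3 individual bioreactors for each condition. Whether the pulse and control arrays of a phase come from the same bioreactors is not given by the labels. The authors deposited log2 expression from RMA (background correction, quantile normalization, summary of probe sets). Quantile normalization sets all arrays to one distribution, so a shift of all transcripts together would not be seen. Values were used as deposited, without a filter. Of 5705 probe sets, 5489 carry 1 named gene and 216 none. The number of arrays limits the precision. Condition means were fitted to all 12 arrays with limma 3.58.1 (R 4.3.3; 8 residual and 4.53 prior degrees of freedom) and p-values were Benjamini-Hochberg adjusted over all 5489. The model was tested on simulated data. The members and gene lists were chosen with earlier results of these data known. Named were the 4 members on every array, up to 3 called genes with the smallest adjusted p per list and pulse comparison (all regulators), and the 5 genes with the highest r per member. Deviations of same-numbered pulse and control arrays from their condition means correlated over probe sets at 0.569, 0.299 and 0.305 in the xylose phase and 0.474, 0.381 and 0.145 in the glucose phase. Pulse array 3 correlated more with control array 2 (0.328 and 0.285) than with control array 3. Replicate 1 also correlated across the phases (0.419 between controls, 0.599 between pulses). Same-numbered arrays thus share variation, but pairs of cultures are not established. A replicate block was run as an alternative. The other alternatives were the arrays of the compared conditions alone, all probe sets, the dimmest 25% left out, a second quantile normalization, median centring, a trended and robust prior, an adjusted p under 0.05, no fold threshold and leaving out each array. Probe sequences were not used here, so signal shared between related genes was not tested. Python 3.11.15, pandas 2.3.3, numpy 2.4.6 and matplotlib 3.10.9 were used for tables and figures.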

Additional observations from a re-analysis of the deposited data

Results flagged for a closer look

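Results that differed between the phases, by the test of the difference itself (limma, adjusted p under 0.01 with no fold threshold), are given as the response in the xylose phase minus that in the glucose phase on the log2 scale. They are given for the members and for those listed genes that the naming rule picks, with ADH4 and ERG26, which are named in the report outside it. Beside them stands how many genes of each whole list also passed the fold threshold. In the family these were GRE2 (-0.59) and ARI1 (0.53), both short of the fold threshold. With the replicate block YGL039W (0.58, adjusted p = 3.6e-04) met the same criterion, and GRE2 and ARI1 still did (adjusted p = 0.00186 and 0.00258). ARI1 did not meet it after a second quantile normalization (limma adjusted p = 0.0176) or with most single arrays left out (up to 0.0264). The named genes of methylglyoxal and furan aldehyde conversion were OYE3 (-6.8), AAD6 (-5.29), BDH2 (-4.24), ALD6 (1.64) and ADH4 (1.61). In their list 2 of 21 were called higher and 13 lower. As background for this and the other list counts, 38.9% of the 5489 probe sets passed both thresholds in the difference of the responses. Of these, 1043 had a positive difference and 1091 a negative one. Among the named short-chain dehydrogenases and reductases were YKL107W (-4.63), YLL056C (-2.85), AYR1 (-2.43), ERG26 (1.23) and ERG27 (0.91), with 1 of 15 in the list called higher and 8 lower. The regulators were YRR1 (-3.07), STB5 (2.1), PDR3 (-1.58), HSF1 (-1.31), SKO1 (-1.13), MSN4 (-0.97) and YAP1 (-0.72), with 1 of 11 called higher and 4 lower. Up to 3 called genes per pulse comparison were taken from the glucose-repressed genes, and those with such a difference were MLS1 (-2.77), PCK1 (-2.29), JEN1 (1.65), HXK1 (-1.45) and CAT8 (-1.29), with 2 of 10 in the list called higher and 4 lower.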

How the results depend on the processing

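The 20 fold changes of the 4 members were recomputed under up to 21 alternatives each. In 404 of 411 cases the direction and the side of the threshold were kept, 4 passed only because the fold threshold was dropped, and 3 changed sign. The changes of sign were values near 0. For YDR541C in the glucose pulse comparison, values ranged from -0.16 to 0.13 over the left-out arrays, with 0.07 without glucose control replicate 2 and 0.13 without glucose pulse replicate 1. For YGL039W in the xylose pulse against the glucose pulse, they ranged from -0.23 to 0.07, with 0.07 without xylose pulse replicate 1. Without a fold threshold, 2 members passed in the difference of the responses (0 with it) and 4 in the xylose control against the glucose control (2 with it). Most probe sets pass in this way, 64.3% in the difference. Between the controls 3015 of 5489 passed even with the fold threshold. These counts therefore say nothing particular about the family. Between the controls, 1 member passed with the dimmest probe sets left out, since YDR541C was then not tested.

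Without a fold threshold, 3337 probe sets passed in the xylose pulse comparison (1109 with it), 3168 in the glucose pulse comparison (1161), 3532 in the difference of the responses (2134) and 4175 between the pulses (2396). With the dimmest left out, 684 passed in the xylose pulse comparison. In that comparison 5 genes of the methylglyoxal and furan aldehyde list passed higher and 6 lower without a fold threshold. PDR1 in the glucose phase fell short of the threshold at 0.95 without glucose control replicate 1, 0.97 without glucose pulse replicate 3 and 0.98 after a second quantile normalization. The replicate block changed no call of a member. Its values are those of YGL039W above, and ARI1's difference of the responses (0.53) had an adjusted p of 0.00258 with it. With single arrays left out and no block, the limma adjusted p of this difference ranged from 0.00157 to 0.0264. ARI1's dim signal in the xylose control and GRE2's bright signal in the glucose pulse limit how exact their fold changes are.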
